A study of Homo sapiens with 44 samples.

Results

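The nuclear-encoded subunits of mitochondrial complexes I, III, IV and V were followed in bulk RNA-seq of Ccd-18Co, an established human colon fibroblast line, across 11 groups of 4 replicates. Members were the rows of the count table whose symbols start with NDUFA, NDUFB, NDUFC, NDUFS, NDUFV, UQCR, COX4I, COX5, COX6, COX7, COX8, ATP5F1, ATP5M or ATP5P. The rule leaves out 180 pseudogene symbols and 8 NDUFAF assembly factors. It found 91 of 40663 symbols. Of these, 83 are subunit genes (37 of complex I, 9 of complex III, 19 of complex IV and 18 of complex V) and 8 are readthrough, antisense or divergent transcripts named after a subunit. NDUFA4, once assigned to complex I, was counted with complex IV, where its protein sits.

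All cells were starved of serum for 72 h and came from the same line, so the data describe 1 fibroblast line rather than a population of donors. The control group received no cytokine. Each of the other 10 groups received a single recombinant cytokine for 24 h: IL-1β at 0.1 ng/ml, or TNF, IFNα, IFNγ, TGF-β1, IL-13, OSM, IL-17A, IL-22 or IL-6 at 10 ng/ml. These are the doses of the sample labels; for IL-1β the sources used here do not all give the same dose. The comparisons ask how each cytokine found in inflamed or fibrotic bowel wall changes the fibroblast transcriptome, and are used here for the genes of oxidative phosphorylation.

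Complex I oxidizes NADH and passes electrons to ubiquinone, complex III passes them on to cytochrome c, and complex IV (cytochrome c oxidase) delivers them to oxygen. The proton gradient that these pumps build drives ATP synthesis by complex V. Most subunits are encoded in the nucleus and imported, a core set is encoded in mitochondrial DNA, and the subunits are needed in fixed ratios. Fibroblasts that respond to inflammatory cytokines are known to shift between respiration and glycolysis. The count table holds 0 symbols of the mitochondrial genome, so the mitochondrially encoded partners are not analysed here.

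The libraries held 742173 to 2213424 estimated counts, a shallow depth that limits the precision for low genes. Fibroblast genes were abundant, with DCN at 14052 to 17491 CPM (counts scaled to a common library size) and COL1A2 at 1796 to 2463 CPM in unstimulated cells. EPCAM, CDH1, KRT20, PECAM1, CDH5, VWF and CD3E were at 0 in the unstimulated libraries, while VIL1, an epithelial marker, was at 6.83 to 18.2 CPM. Nothing in the sources says that replicates were separate cultures, so p-values measure the spread between these samples, which may be technical.

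Of the 83 subunit genes, 72 were abundant enough to be tested, among 9513 genes in all. They were among the more abundant transcripts of the line: their median level per length in unstimulated cells was 186 CPM per kb, against 6.43 CPM per kb over all genes tested. Their transcripts were also short, with a median of 757 bases against 3417 bases. Per length, COX6A1, a structural subunit of complex IV, was the highest of all at 1846 ± 403 CPM per kb (SD, n = 4). ATP5PF, the coupling factor in the stalk of ATP synthase, reached 1158 ± 219, NDUFA12 of complex I 1107 ± 339, and UQCR10 of complex III 508 ± 92.6 CPM per kb. The lowest tested subunit of each complex was NDUFS1 at 6.56 ± 1.92, UQCRFS1 at 14.8 ± 3.54, COX7B at 15.9 ± 5.25 and ATP5F1D at 9.96 ± 3.93 CPM per kb. Subunits that are built into the same complex in fixed ratios therefore differed widely in transcript level per length. The rank of NDUFS1 depended on its length of 11660 bases. Before division by length it had 76.5 CPM, and NDUFA6 was the lowest of complex I at 13.3 CPM. UQCRFS1, at 45.6 CPM, was the lowest tested subunit of complex III on both scales. The lengths are those of annotated canonical transcripts, which were not checked against the isoforms that the line uses.

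The replicates agreed closely for some subunits and poorly for others. In unstimulated cells the coefficient of variation ran from 2.65% for NDUFS6 to 79.0% for NDUFA6, with a median of 19.2%. NDUFS6, at 181, 172, 182 and 175 CPM, was the steadiest. NDUFA6 averaged 13.3 CPM, and its fitted changes were the largest of any subunit without passing the test (log2 fold change 1.61 for IL-22, SE 0.89, adjusted p = 0.534).

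The tissue-restricted isoforms were not measurable. COX4I2, the hypoxia- and lung-linked form of subunit 4, had at most 1 count in any library, and the muscle form COX6A2 had 0 counts in all 44. COX7A1, the heart and muscle form, had at most 7 counts. The sperm form COX6B2, the testis forms COX7B2 and COX8C, the hypoxia-linked NDUFA4L2 and the UQCRH copy UQCRHL had at most 3 counts in any library. For subunits 4 and 7a the widely expressed form carried the signal, with COX4I1 at 237 ± 21.5 CPM and COX7A2 at 274 ± 42.9 CPM (SD, n = 4). Among genes of wide expression, ATP5MC2 had at most 16.2 and COX6B1 at most 3.31 estimated counts, so neither could be tested, whereas ATP5MC1 and ATP5MC3, which code for the same mature ring protein as ATP5MC2, averaged 231 and 182 CPM. How reads were assigned among such copies is not given in the sources used here. Of the other 8 symbols, only NDUFB2-AS1 and NDUFC2-KCTD14 were tested and neither changed for any cytokine; both share sequence with a subunit gene, so their reads cannot be cleanly told from it.

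Promoter sequence was a feature that the choice of members did not use. RefSeq promoters (250 bases before to 50 after the start, build GRCh38.p14) were matched for 66 of the 83 subunit genes and searched on both strands for 4 motifs. The core of the NRF1 site, GCGCATGC, occurred in 18.2% of them against 3.68% of all 27305 genes with a promoter. The ETS core CCGGAAGT, bound by GABPA, occurred in 16.7% against 4.95%, and the YY1 motif AAGATGGCG in 12.1% against 2.14%. The degenerate NF-κB consensus occurred in 13.6% against 13.3%. These motifs do not overlap each other in the windows printed here. Of the 19 subunit genes with a promoter that changed for at least 1 cytokine, 4 held the NRF1 core, 4 the ETS core and 3 the YY1 motif; of the 41 that were tested and did not change, 7, 7 and 5 did. The 27305 genes include genes that these cells do not express, and the shares over the genes tested here are not given. The shares are descriptions of letters in a window, and no binding was measured.

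To show windows that hold a motif, 4 promoters of subunits that changed are printed 5′ to 3′ with the motif in capitals: ATP5PF (chr21:25735005-25735304, minus strand) with the NRF1 core at bases -120 to -113 and the YY1 motif at -57 to -49 from the start site of that promoter, NDUFS6 (chr5:1801157-1801456, plus strand) with the NRF1 core at -46 to -39, UQCRH (chr1:46303448-46303747, plus strand) with the ETS core on the other strand at -47 to -40, and NDUFA9 (chr12:4648864-4649163, plus strand) with the YY1 motif 11 to 19 bases into the transcript. Each is the first RefSeq promoter of its gene with an NRF1, ETS or YY1 match. ATP5PF has 2 promoters, and its ETS core lies in the one not printed.
ATP5PF: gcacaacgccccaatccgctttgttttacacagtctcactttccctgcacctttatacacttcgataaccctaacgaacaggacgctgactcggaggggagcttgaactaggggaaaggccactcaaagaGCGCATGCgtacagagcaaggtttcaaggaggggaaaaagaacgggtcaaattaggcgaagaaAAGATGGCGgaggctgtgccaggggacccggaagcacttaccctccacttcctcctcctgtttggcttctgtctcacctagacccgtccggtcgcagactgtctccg
NDUFS6: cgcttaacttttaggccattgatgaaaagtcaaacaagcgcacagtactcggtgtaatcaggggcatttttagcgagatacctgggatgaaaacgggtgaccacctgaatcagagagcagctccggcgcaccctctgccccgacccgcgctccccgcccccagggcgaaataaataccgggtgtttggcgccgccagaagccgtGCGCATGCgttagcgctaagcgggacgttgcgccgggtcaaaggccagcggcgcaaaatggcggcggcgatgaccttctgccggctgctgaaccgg
UQCRH: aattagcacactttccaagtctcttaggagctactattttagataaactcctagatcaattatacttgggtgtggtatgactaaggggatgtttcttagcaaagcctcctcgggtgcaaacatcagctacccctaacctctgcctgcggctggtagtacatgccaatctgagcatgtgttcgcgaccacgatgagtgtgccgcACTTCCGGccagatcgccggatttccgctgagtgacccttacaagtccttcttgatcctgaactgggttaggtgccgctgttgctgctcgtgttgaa
NDUFA9: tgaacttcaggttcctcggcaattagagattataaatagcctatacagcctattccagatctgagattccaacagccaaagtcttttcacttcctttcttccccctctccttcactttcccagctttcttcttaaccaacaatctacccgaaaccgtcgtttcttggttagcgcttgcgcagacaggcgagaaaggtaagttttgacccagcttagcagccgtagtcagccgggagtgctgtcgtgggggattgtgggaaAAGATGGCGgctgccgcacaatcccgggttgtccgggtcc

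Across the 11 groups, 35 of the 72 tested subunits (48.6%) differed by edgeR's quasi-likelihood F-test at an adjusted p under 0.05, where 35.7% of all 9513 genes did. The share was alike in the 4 complexes, with 18 of 37 subunits of complex I, 4 of 8 of complex III, 5 of 11 of complex IV and 8 of 16 of complex V. NDUFV2 (adjusted p = 2.43e-06), COX7A2 (6.87e-06), NDUFA4 (7.48e-06) and COX4I1 (1.68e-05) had the smallest p-values. The changes were modest. Against unstimulated cells there were 40 calls in 23 subunits, 38 of them increases, with absolute log2 fold changes of 0.42 to 0.98 and a median of 0.56. As a share of all 720 tests these calls (5.56%) were near the 5.45% over all genes, whose calls were 2427 increases and 2753 decreases.

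TNF moved the most subunits. It raised 13 of 72 (18.1%) and lowered 0, where it raised 5.37% and lowered 6.09% of all genes tested. IL-13 raised 9 (12.5%) and lowered 0, against 1.53% raised and 2.4% lowered over all genes. TGF-β1 raised 5 (6.94%) and lowered 0, against 2.61% and 3.08%, and IL-1β raised 4 (5.56%) and lowered 0, against 3.46% and 3.92%. IFNγ raised 3 (4.17%) and lowered 0, against 5.52% and 5.13%, so that its share of raised subunits was near that of all genes. IL-17A raised 2 (2.78%) against 0.599% and lowered 0 against 0.925%. OSM raised 1 (1.39%) against 1.42% and lowered 0 against 2.54%. IFNα was the exception in direction, with 1 subunit raised (1.39%, against 4.99%) and 2 lowered (2.78%, against 4.86%). IL-22 changed 0 subunits and 0% of all genes, and IL-6 0 subunits and 0.0105% of all genes, a single gene.

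At an unadjusted p under 0.05 the subunits split 25 up and 0 down for TNF, 23 and 0 for IL-13, 21 and 0 for TGF-β1, 10 and 0 for IL-1β, 13 and 3 for IFNγ, 30 and 2 for IL-17A, 7 and 3 for OSM, 4 and 8 for IFNα, 24 and 1 for IL-22, and 2 and 0 for IL-6. Of all 9513 genes, 2236, 1486, 1799, 1610, 2216, 1195, 1455, 2034, 1037 and 233 reached that p in either direction, in the same order. DESeq2 called 16, 12, 12, 4, 7, 7 and 1 subunits up for the first 7 of these and 0 down, 1 up and 2 down for IFNα, 8 up and 1 down for IL-22, and 0 for IL-6. Of all 9513 genes, it called 625, 232, 385, 375, 667, 100 and 203 up for the same first 7 cytokines. It called 627, 295, 351, 444, 499, 133 and 307 of all genes down for them. For IFNα it called 564 of all genes up and 505 down, for IL-22 65 and 31, and for IL-6 1 and 0. The zero count for IL-22 by edgeR therefore stood beside fold changes of the same size as for other cytokines: NDUFA13 was at 833, 1012, 1000 and 663 CPM with IL-22, above the 447, 494, 636 and 515 CPM of unstimulated cells in every library (log2 fold change 0.75, SE 0.17), and missed the threshold at an adjusted p of 0.0911. The study also asked for an absolute log2 fold change above 1.5, on DESeq2 results. No subunit passed this stricter rule when it was applied to the edgeR calls. That rule called 4.19% of all genes for TNF, 2.78% for IL-1β, 3.98% for IFNα, 3.53% for IFNγ, 1.3% for OSM, 1.7% for TGF-β1, 0.452% for IL-17A, 1.47% for IL-13, 0% for IL-22 and 0.0105% for IL-6.

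**Figure D1:**
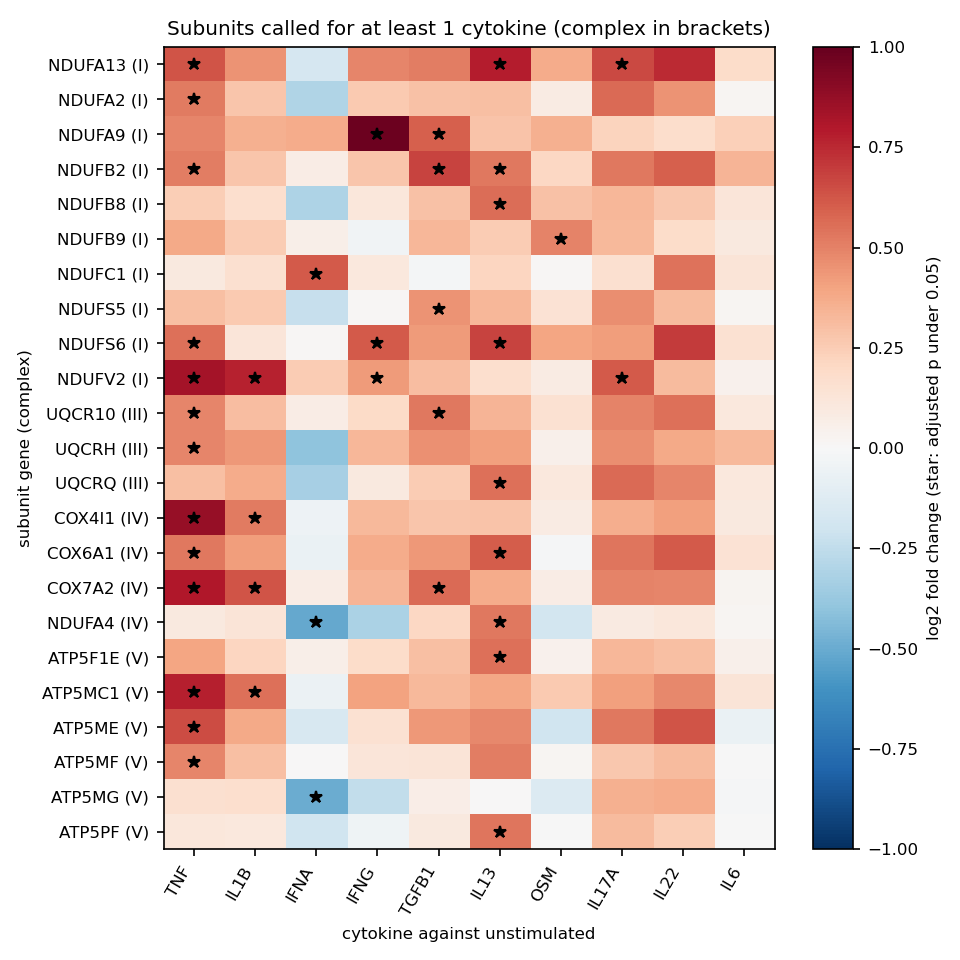
Log2 fold change against unstimulated cells (colour, scale from -1 to 1) of the 23 subunits called for at least 1 of the 10 cytokines (columns), ordered by complex; a star marks an adjusted p under 0.05 by edgeR. TNF carries 13 stars and IL-13 9, the IFNα column holds the 2 decreases, and the IL-22 column reaches 0.75 (NDUFA13) without a star.

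The summed level of the 83 subunit genes showed how far whole libraries moved. Unstimulated libraries summed to 15197, 15998, 20054 and 17321 CPM, with replicate 3 well above the others. IFNα libraries were at 15446, 16348, 16435 and 15132 CPM, within or below the unstimulated range, whereas all IL-13 libraries (20319, 20974, 22652 and 23714 CPM) and all IL-17A libraries (20735, 21672, 22925 and 20645 CPM) lay above it. TNF libraries spanned 17082 to 23503 CPM because replicate 4 was low, and TGF-β1 libraries 17826 to 22716 CPM with replicate 4 again lowest. In bulk samples, fewer cells of a type and less RNA per cell cannot be told apart, and each sum is a share of its library.

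Some of the same libraries stood out in the cytosolic ribosomal protein genes, which share short transcripts and high abundance with the subunits. Their 4 unstimulated libraries summed to 25362, 27491, 36021 and 29375 CPM, replicate 3 again highest, and TNF replicate 4 was again the lowest of its group at 27396 against 32722 to 37074 CPM. Over the 10 cytokines the tested ribosomal genes had median log2 fold changes of 0.22 for TNF, 0.11 for IL-1β, -0.27 for IFNα, 0.27 for IFNγ, 0.20 for OSM, 0.30 for TGF-β1, 0.25 for IL-17A, 0.36 for IL-22, 0.35 for IL-13 and 0.04 for IL-6. The subunits' medians were 0.30, 0.19, -0.07, 0.16, 0.08, 0.29, 0.28, 0.31, 0.29 and 0.05 in the same order, while the median over all genes was between -0.05 and 0.00. The 449 tested genes with canonical transcripts under 1000 bases had medians of 0.41 for TNF, 0.39 for IFNγ, 0.33 for TGF-β1, 0.31 for IL-22 and 0.16 for IFNα, and between 0.08 and 0.20 for the other 5. The part that this shared movement of short, abundant transcripts has in the subunits' changes was not tested.

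**Figure D2:**
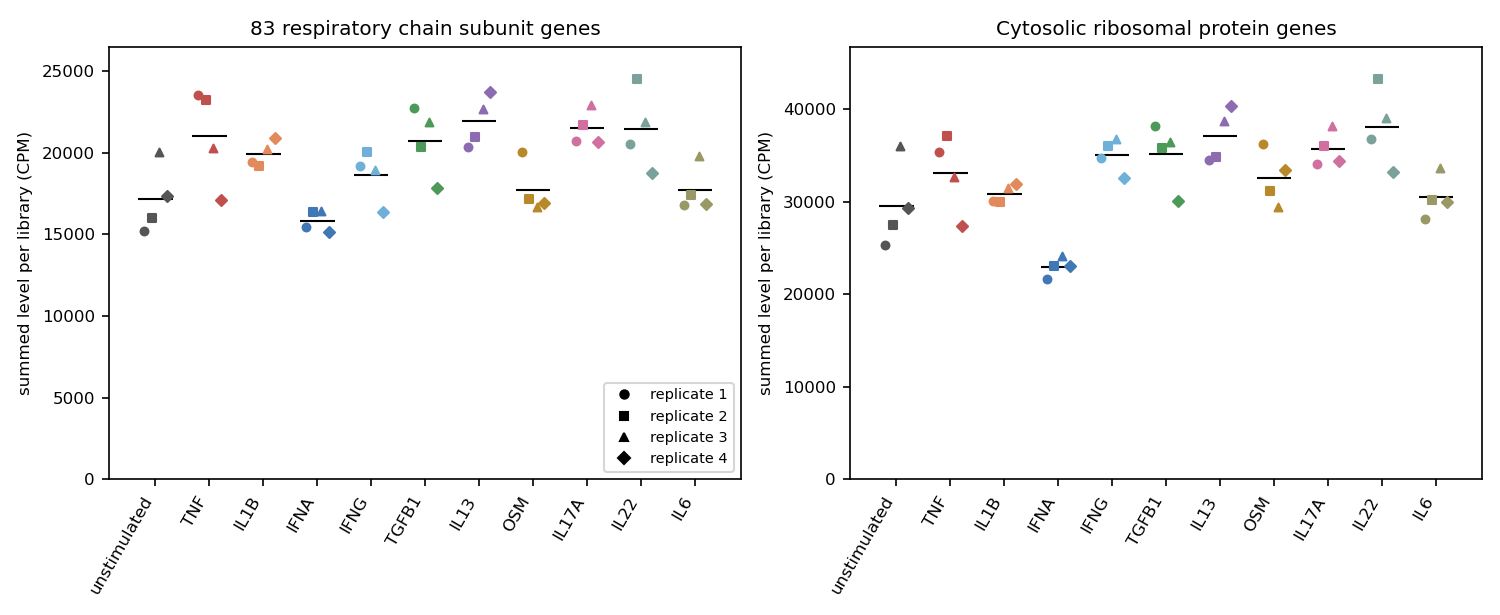
Summed CPM of the 83 subunit genes (left) and of the cytosolic ribosomal protein genes (right) in each of the 44 libraries; circles, squares, triangles and diamonds are replicates 1 to 4 and lines the group means. All IFNα libraries lie below every other library in the right panel (21642 to 24158 CPM) but only within or just below the unstimulated range in the left, and unstimulated replicate 3 and TNF replicate 4 stand out from their groups in both.

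**Figure D3:**
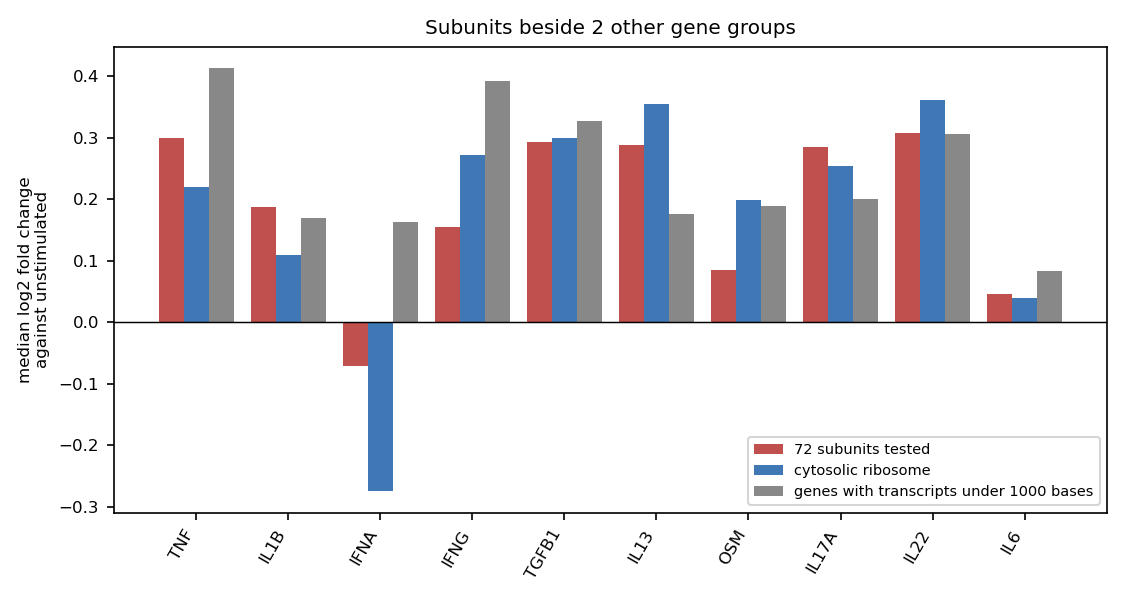
Median log2 fold change against unstimulated cells of the 72 tested subunits, the tested cytosolic ribosomal protein genes and the 449 genes with canonical transcripts under 1000 bases, for each cytokine. The bars of the 3 gene groups have the same sign except for IFNα, where short transcripts lie at 0.16 and subunits and ribosomal genes below 0.

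Leaving out single libraries moved these counts by more than 1.5 times. For TNF the 13 became 4 when TNF replicate 1 was dropped, 8 when TNF replicate 2 was, and 8 and 5 when unstimulated replicates 1 and 2 were. For IL-13 the 9 became 5 without IL-13 replicate 4, 3 when unstimulated replicate 1 or 2 was dropped, and 15 when unstimulated replicate 3 was. For TGF-β1 the 5 became 15 without TGF-β1 replicate 4, 11 and 3 when unstimulated replicates 3 and 1 were dropped, and 2 without TGF-β1 replicate 1 or 3 or unstimulated replicate 2 or 4. For IL-1β the 4 became 10 without unstimulated replicate 3, and for IFNγ the 3 became 7 without it and 6 without IFNγ replicate 2. For IL-17A the 2 became 1 without IL-17A replicate 2 or 3 or unstimulated replicate 4, 0 when unstimulated replicate 1 or 2 was dropped and 13 when unstimulated replicate 3 was. For IFNα the 3 became 1 without IFNα replicate 1, and 5 and 0 when unstimulated replicates 1 and 3 were dropped. The single OSM call became 2 when unstimulated replicate 1 was dropped, and 0 when OSM replicate 1 or unstimulated replicate 2 or 4 was, and for IL-22 the 0 became 7 without unstimulated replicate 3 and 3 without IL-22 replicate 4. No named change reversed its direction in any of these fits. The calls over all genes in these fits are not given here. A shift particular to the subunits therefore cannot be told from a shift of all genes.

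In complex I, NDUFV2 rose for more cytokines than any other subunit. It encodes an iron-sulfur protein of the module that oxidizes NADH, and lies at chr18:9102630-9134345 on the plus strand. Unstimulated libraries had 242, 257, 315 and 322 CPM, and TNF libraries 510, 497, 479 and 537 CPM. Every TNF library was above every unstimulated one (log2 fold change 0.83, SE 0.14, adjusted p = 3.32e-05). IL-1β libraries, at 514, 412, 490 and 519 CPM, were also all above (0.77, SE 0.14, adjusted p = 0.000135), as were IL-17A libraries at 430, 436, 462 and 408 CPM (0.61, SE 0.14, adjusted p = 0.0135). The change for IFNγ, with 374, 368, 423 and 357 CPM, was smaller (0.42, SE 0.14, adjusted p = 0.0454). For IL-13, OSM and IL-6 the log2 differences were 0.17, 0.09 and 0.05 and did not pass the test. The IFNγ call was lost without unstimulated replicate 1 or 2 or IFNγ replicate 3 or 4 (adjusted p up to 0.135), and the IL-17A call without unstimulated replicate 1 or 2 (up to 0.0861). NDUFV2 has 1 pseudogene symbol in the table, which held 3.30% of the reads of the pair.

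NDUFA13, a membrane-arm subunit also known as GRIM-19, and NDUFS6, a zinc-binding subunit added late in assembly, each changed for 3 cytokines. NDUFA13 had 447, 494, 636 and 515 CPM in unstimulated cells and 806, 804, 978 and 1010 CPM with IL-13, with no overlap (log2 fold change 0.78, SE 0.17, adjusted p = 0.00353). With IL-17A it had 706, 847, 999 and 753 CPM (0.66, SE 0.17, adjusted p = 0.034). With TNF it had 1003, 884, 814 and 536 CPM, of which replicate 4 fell inside the unstimulated range (0.63, SE 0.17, adjusted p = 0.0102). NDUFS6 moved from 172 to 182 CPM in unstimulated cells to 281, 286, 260 and 310 CPM with IL-13 (0.68, SE 0.17, adjusted p = 0.0125) and to 319, 268, 263 and 237 CPM with IFNγ (0.61, SE 0.17, adjusted p = 0.0123). With TNF, 3 libraries were at 259 to 312 CPM and replicate 4 at 160 CPM, below all unstimulated ones (0.55, SE 0.17, adjusted p = 0.0258). The IL-13 calls of both genes and the IFNγ call of NDUFS6 held whichever library was left out. The TNF call of NDUFA13 was lost without TNF replicate 1 (adjusted p = 0.0543), that of NDUFS6 also without TNF replicate 2 or unstimulated replicate 2 or 4 (up to 0.0982), and the IL-17A call of NDUFA13 in 5 of 8 such fits (without IL-17A replicate 2 or 3 or unstimulated replicate 1, 2 or 4; up to 0.151).

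NDUFA9, a subunit at the junction of the peripheral and the membrane arm, had the largest change among the subunits that passed the test. Unstimulated libraries had 208, 157, 193 and 189 CPM, and IFNγ libraries 382, 295, 407 and 392 CPM. The groups did not overlap (log2 fold change 0.98, SE 0.18, adjusted p = 8.45e-05). It also rose with TGF-β1, where 343, 316 and 299 CPM stood above and replicate 4 at 174 CPM within the unstimulated range (0.60, SE 0.18, adjusted p = 0.0341). NDUFB2, of the distal membrane arm, rose with TGF-β1 (448, 406, 429 and 328 CPM against 269, 227, 267 and 249 CPM in unstimulated cells; 0.67, SE 0.16, adjusted p = 0.0049). It rose less with IL-13 (0.53) and TNF (0.51). The IFNγ call of NDUFA9 and the TGF-β1 call of NDUFB2 held whichever library was left out. The TGF-β1 call of NDUFA9 was lost without TGF-β1 replicate 1, 2 or 3 or unstimulated replicate 2 or 4 (adjusted p up to 0.146), the IL-13 call of NDUFB2 without IL-13 replicate 3 or 4 or unstimulated replicate 1, 2 or 4 (up to 0.126), and its TNF call without TNF replicate 1 or 3 or unstimulated replicate 2 (up to 0.0847). An antisense symbol, NDUFB2-AS1, overlaps it and did not pass the test for any cytokine.

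Other complex I subunits changed for a single cytokine each. NDUFB9, a distal membrane-arm subunit, was the only subunit called for OSM, at 279, 218, 222 and 209 CPM against 165, 158, 203 and 132 CPM (log2 fold change 0.50, SE 0.14, adjusted p = 0.0284). NDUFC1, a small membrane-arm subunit, was the only one raised by IFNα. It had 208, 208, 146 and 139 CPM against 126, 130, 91.5 and 110 CPM (0.62, SE 0.19, adjusted p = 0.0274). The OSM call was lost without OSM replicate 1 or unstimulated replicate 2 or 4 (adjusted p up to 0.174), and the call of NDUFC1 without IFNα replicate 1 or 2 or unstimulated replicate 3 or 4 (up to 0.103). NDUFB8 rose with IL-13 (770, 766, 822 and 847 CPM against 539, 529, 603 and 501 CPM; 0.56, SE 0.13, adjusted p = 0.00765), NDUFA2 with TNF (0.52, adjusted p = 0.0398) and NDUFS5 with TGF-β1 (0.45, adjusted p = 0.0397). The call of NDUFB8 held whichever library was left out, that of NDUFA2 was lost without TNF replicate 1, 2 or 3 or unstimulated replicate 1, 2 or 4 (adjusted p up to 0.157), and that of NDUFS5 without TGF-β1 replicate 1 or 3 or the same 3 unstimulated libraries (up to 0.124). NDUFS1, which carries iron-sulfur clusters of the electron path, and NDUFA12 passed for no cytokine. Several subunits of this complex narrowly missed the threshold, among them NDUFAB1 (0.57, adjusted p = 0.0509) and NDUFB4 (0.55, adjusted p = 0.0554) for TGF-β1, NDUFA13 for IFNγ (0.49, adjusted p = 0.0595) and NDUFA9 for TNF (0.49, adjusted p = 0.0628).

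In complex III, 3 of 8 tested subunits (37.5%) were called for at least 1 cytokine. The counts were 10 of 37 (27%) in complex I, 4 of 11 (36.4%) in complex IV and 6 of 16 (37.5%) in complex V. As a share of all tests, calls were 5% in complex III, 5.41% in I, 8.18% in IV and 4.38% in V, against 5.45% over all genes. UQCR10, a small subunit, rose with TGF-β1 (738, 636, 743 and 560 CPM against 372, 461, 578 and 449 CPM, overlapping through TGF-β1 replicate 4; log2 fold change 0.53, SE 0.15, adjusted p = 0.0313) and with TNF (0.49, SE 0.15, adjusted p = 0.0294). UQCRH, the hinge protein by which cytochrome c1 meets cytochrome c, rose with TNF, at 197, 245, 181 and 140 CPM against 111, 125, 166 and 140 CPM (0.49, SE 0.16, adjusted p = 0.0335). In both TNF comparisons the groups overlapped through TNF replicate 4. UQCRQ, a small subunit, rose with IL-13, at 1042, 951, 1178 and 1336 CPM against 615, 669, 993 and 802 CPM (0.55, SE 0.16, adjusted p = 0.0407), a call lost without IL-13 replicate 3 or 4 or unstimulated replicate 1, 2 or 4 (up to 0.154). The TGF-β1 call of UQCR10 was lost without TGF-β1 replicate 1 or 3 or unstimulated replicate 1, 2 or 4 (adjusted p up to 0.105), and its TNF call without TNF replicate 1 or 2 or the same 3 unstimulated libraries (up to 0.116). The TNF call of UQCRH was lost without TNF replicate 1 or 2 or unstimulated replicate 1 or 2 (up to 0.158). All 8 tested complex III subunits had a positive log2 fold change for TNF and for TGF-β1, with medians of 0.45 and 0.47. Of all 72 tested subunits, 62 and 65 were positive for these cytokines, and of all 9513 genes 4642 and 4629.

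In complex IV, COX4I1 and COX7A2 rose together with TNF and IL-1β. COX4I1 encodes the largest nuclear-encoded subunit, which binds ATP and regulates the enzyme (chr16:85798633-85807068, plus strand). It had 231, 216, 267 and 233 CPM in unstimulated cells, 455, 481, 434 and 357 CPM with TNF (log2 fold change 0.87, SE 0.14, adjusted p = 1.94e-05) and 361, 300, 357 and 340 CPM with IL-1β (0.52, SE 0.14, adjusted p = 0.0134). COX7A2, the widely expressed form of subunit 7a (chr6:75237675-75250323, minus strand), had 241, 241, 331 and 283 CPM in unstimulated cells. It had 512, 542, 458 and 399 CPM with TNF (0.80, SE 0.14, adjusted p = 5.39e-05), 379, 410, 473 and 435 CPM with IL-1β (0.63, SE 0.14, adjusted p = 0.00168) and 431, 400, 440 and 354 CPM with TGF-β1 (0.57, SE 0.14, adjusted p = 0.00862). The groups did not overlap in these 5 comparisons, and leaving out a library ended only the IL-1β call of COX4I1 (without unstimulated replicate 2, adjusted p = 0.0524).

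COX6A1 rose with IL-13, where 1334, 1476, 1554 and 1669 CPM stood above the 744, 942, 1268 and 1010 CPM of unstimulated cells (log2 fold change 0.61, SE 0.17, adjusted p = 0.028). With TNF it had 1682, 1809, 1269 and 959 CPM, and the groups overlapped (0.53, SE 0.17, adjusted p = 0.0313). The IL-13 call was lost without IL-13 replicate 4 or unstimulated replicate 1, 2 or 4 (adjusted p up to 0.129), and the TNF call without TNF replicate 1 or 2 or unstimulated replicate 1 or 2 (also up to 0.129). COX7A2L, the relative of COX7A2 that helps join complexes III and IV, did not pass for any cytokine, and its log2 fold change for TNF was 0.10 against 0.80 for COX7A2. COX8A and COX7B did not pass either, although COX7B had a log2 fold change of 1.04 for TNF (SE 0.45, adjusted p = 0.135).

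**Figure D4:**
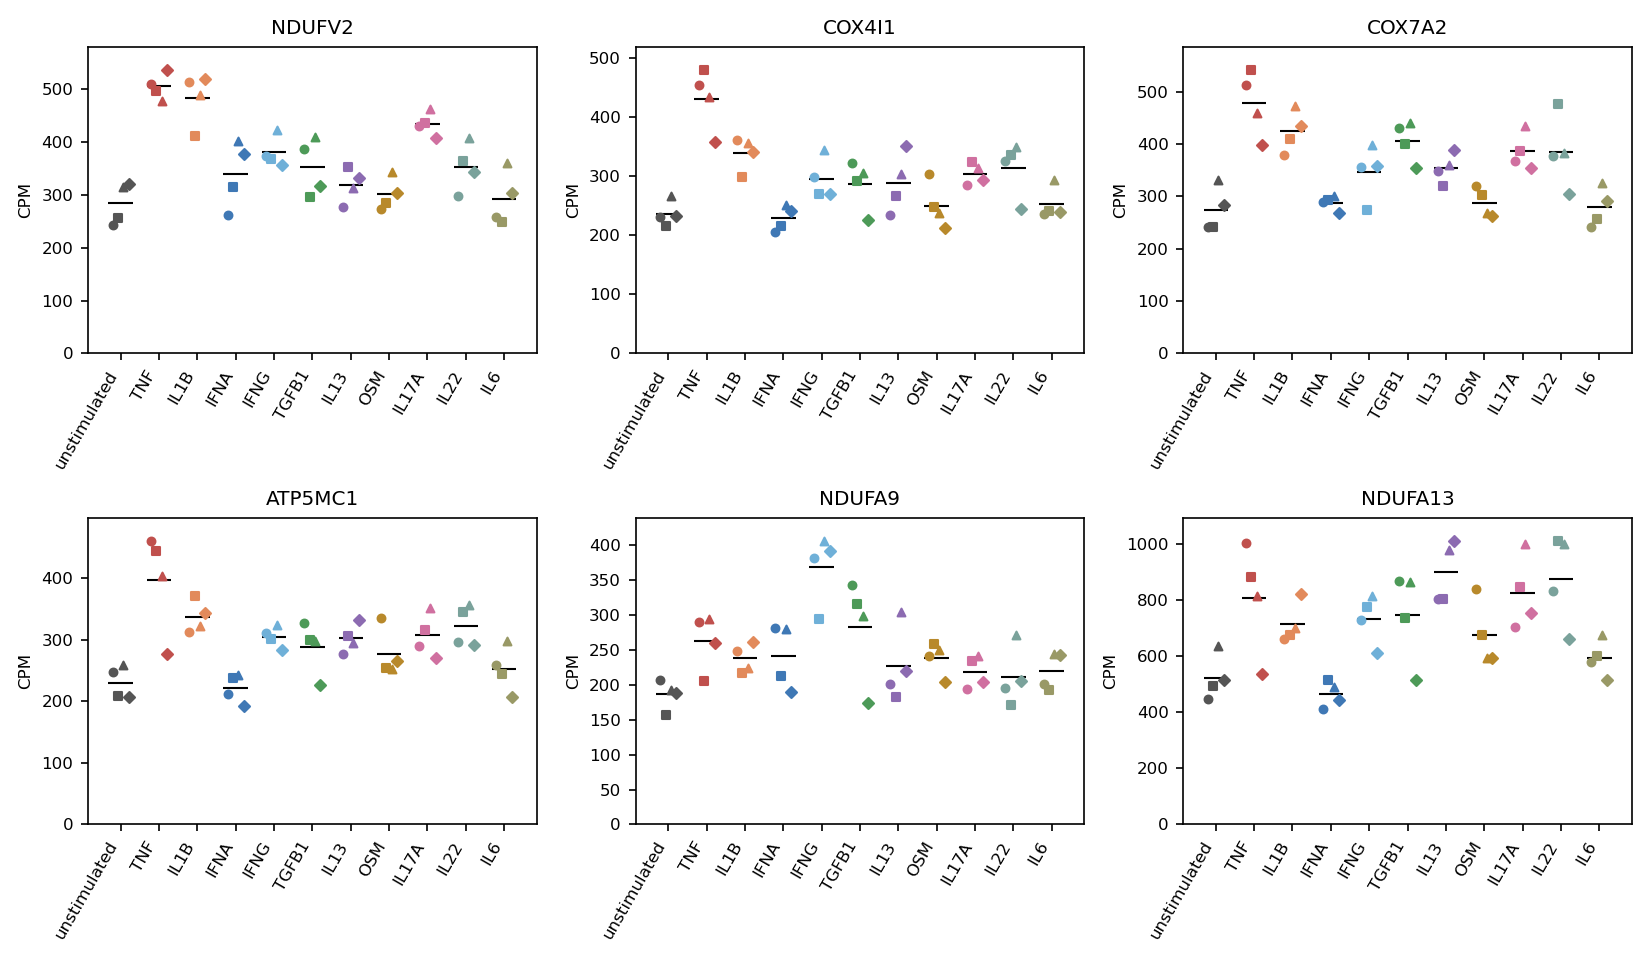
CPM of 6 subunits in each of the 44 libraries (circles, squares, triangles and diamonds: replicates 1 to 4; lines: group means). The means of NDUFV2, COX4I1, COX7A2 and ATP5MC1 are highest with TNF and IL-1β, that of NDUFA9 with IFNγ and NDUFA13 with IL-13 and IL-22, and TNF replicate 4 lies below the other TNF libraries for COX4I1, COX7A2, ATP5MC1 and NDUFA13.

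NDUFA4 was the only subunit that changed in both directions. Its protein is attached to complex IV, and the gene lies at chr7:10931943-10940153 on the minus strand. Unstimulated libraries had 867, 958, 1070 and 1033 CPM. IL-13 libraries were all higher, at 1431, 1530, 1354 and 1348 CPM (log2 fold change 0.53, SE 0.14, adjusted p = 0.0197), and IFNα libraries were all lower, at 743, 747, 651 and 610 CPM (-0.51, SE 0.14, adjusted p = 0.0111). The IL-13 call was lost without unstimulated replicate 1 or 2 (adjusted p up to 0.0756) and the IFNα call without IFNα replicate 4 or unstimulated replicate 3 (up to 0.0736). TNF (1226, 1221, 912 and 853 CPM) and IL-1β (1100, 1057, 1049 and 1088 CPM) overlapped the unstimulated libraries, with log2 differences of 0.10 and 0.13 that did not pass the test and 95% intervals of -0.18 to 0.38 and -0.15 to 0.40.

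C15orf48 (COXFA4L3) encodes a small paralogue of NDUFA4 that is known to take its place in complex IV in inflamed tissue. It is no member by the symbol rule and was followed as a companion. The 4 unstimulated libraries held 0, 0, 0 and 5 counts of it. With IL-1β there were 148, 114, 176 and 135 counts, or 74.7, 75.6, 112 and 87.6 CPM (log2 fold change 6.61, SE 0.84, adjusted p = 2.79e-07). With TNF there were 34, 27, 30 and 40 counts, or 24.0, 23.3, 22.5 and 21.4 CPM (4.67, SE 0.83, adjusted p = 9.22e-05). Since nearly all unstimulated libraries were at 0, these fitted sizes depend on the prior count. IFNα libraries held 3, 7, 6 and 10 counts (adjusted p = 0.11 by edgeR and 0.0423 by DESeq2, which called it), and no library of the other 7 groups held more than 5. TNF libraries were all below IL-1β libraries, although the direct contrast missed the threshold (-1.94, SE 0.61, adjusted p = 0.124 by edgeR); DESeq2 called it (-1.91, adjusted p = 0.0124). Even with IL-1β its mean level was 87.4 CPM beside 1074 CPM of NDUFA4.

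**Figure D5:**
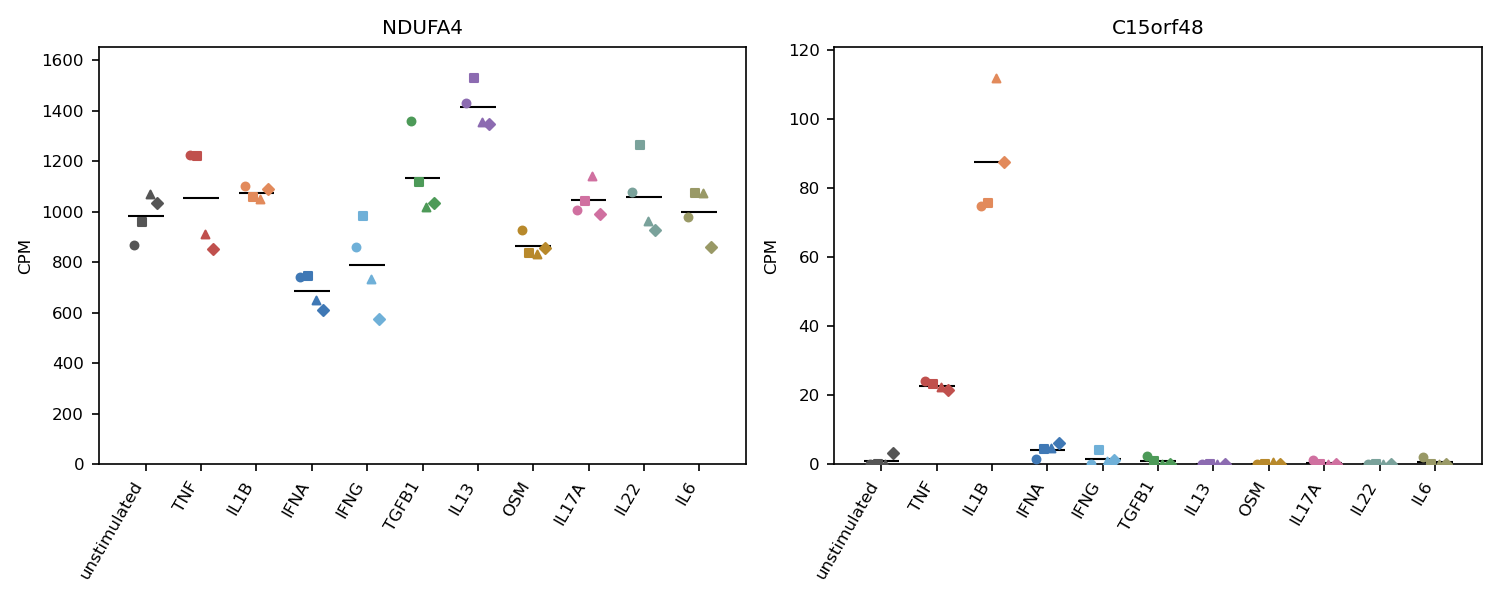
CPM of NDUFA4 (left) and of its paralogue C15orf48 (right) in each of the 44 libraries (circles, squares, triangles and diamonds: replicates 1 to 4; lines: group means). C15orf48 is near 0 in most groups and reaches 74.7 to 112 CPM with IL-1β and 21.4 to 24.0 CPM with TNF, where NDUFA4 overlaps its unstimulated range; the mean of NDUFA4 is lowest with IFNα and highest with IL-13.

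The last exon of C15orf48 also holds the hairpin of miR-147b, a microRNA known to target NDUFA4, so that the paralogue and a regulator of NDUFA4 come from 1 locus. The mature miR-147b-3p (RefSeq, GRCh38.p14, chr15:45433098-45433118, plus strand) is printed below with its seed, bases 2 to 8, in capitals. The stretch of the NDUFA4 transcript that pairs with the seed (GRCh38, chr7:10933568-10933591, minus strand) follows with the matching bases in capitals; it is the only seed match in the 1693 bases after the stop codon and starts at base 56 of them. MicroRNAs were not measured in these libraries.
miR-147b-3p: gUGUGCGGaaaugcuucugcu
NDUFA4 site: agaagccacatCCGCACAattttc

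In complex V, ATP5MC1 was the clearest response. It encodes the ring subunit through which protons pass (chr17:48892765-48895871, plus strand). Unstimulated libraries had 248, 209, 260 and 206 CPM, TNF libraries 461, 444, 404 and 277 CPM (log2 fold change 0.78, SE 0.15, adjusted p = 0.000133) and IL-1β libraries 312, 372, 323 and 344 CPM (0.55, SE 0.15, adjusted p = 0.00998). ATP5MC3, which codes for the same mature protein, had log2 fold changes of 0.12 and 0.02 for these cytokines and did not pass. The difference between the genes was not tested.

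ATP5PF rose with IL-13, at 793, 866, 880 and 1002 CPM against 482, 548, 736 and 671 CPM (log2 fold change 0.54, SE 0.14, adjusted p = 0.0141). The call was lost without unstimulated replicate 1 or 2 (adjusted p up to 0.0784). ATP5MG, a membrane subunit at the interface of ATP synthase dimers, fell with IFNα, at 214, 237, 204 and 245 CPM against 284, 267, 409 and 311 CPM (-0.50, SE 0.14, adjusted p = 0.0148). Every IFNα library was below every unstimulated one, and the fall was lost without unstimulated replicate 3 (-0.32, adjusted p = 0.185) and without IFNα replicate 1 or 3 (up to 0.0589). ATP5ME and ATP5MF, membrane subunits, rose with TNF by 0.65 (adjusted p = 0.029) and 0.49 (adjusted p = 0.0342) on the log2 scale, and ATP5F1E, of the central stalk, with IL-13 by 0.55 (adjusted p = 0.0403). The call of ATP5ME was lost without TNF replicate 1, 2 or 3 or unstimulated replicate 1 or 2 (adjusted p up to 0.131), that of ATP5MF without TNF replicate 1 or 2 or the same unstimulated libraries (up to 0.127), and that of ATP5F1E without IL-13 replicate 2, 3 or 4 or unstimulated replicate 1, 2 or 4 (up to 0.141). The catalytic-head subunits ATP5F1A and ATP5F1B were not called for any cytokine.

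TNF and IL-1β, compared directly, differed in 0 of 72 subunits, where 1.15% of all genes differed. At an unadjusted p under 0.05 there were 3, all higher with TNF, and DESeq2 called 0. Of all 9513 genes, 1091 reached that unadjusted p, and DESeq2 called 76 higher and 101 lower with TNF. Without TNF replicate 4, edgeR called 1 subunit. The list of 4 subunits raised by IL-1β (NDUFV2, COX7A2, ATP5MC1 and COX4I1) also held the 4 with the largest increases among those that passed for TNF, but these comparisons share their unstimulated libraries. For COX4I1 the log2 difference between TNF and IL-1β was 0.35, and for NDUFV2 0.06.

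IFNα and IFNγ did differ. Of 72 subunits, 8 (11.1%) were lower with IFNα than with IFNγ and 0 higher, against 4.46% and 4.93% of all genes. At an unadjusted p under 0.05 there were 13 lower and 1 higher, and DESeq2 called 8 lower and 0 higher. Of all 9513 genes, 1966 reached that unadjusted p, and DESeq2 called 492 lower and 491 higher. UQCRH had 88.2, 98.1, 123 and 102 CPM with IFNα and 164, 216, 148 and 155 CPM with IFNγ, with no overlap (log2 difference -0.73, SE 0.16, adjusted p = 0.00127). NDUFA13 had 412, 516, 489 and 444 CPM against 729, 777, 817 and 612 CPM (-0.66, SE 0.17, adjusted p = 0.00906). NDUFA9 (-0.61), NDUFS6 (-0.60) and ATP5MC1 (-0.46) also passed, as did NDUFA2, NDUFAB1 and NDUFB8. All 8 tested subunits of complex III and all 11 of complex IV had a negative difference, as did 14 of 16 in complex V and 23 of 37 in complex I. Over all genes, 4782 of 9513 did. The cytosolic ribosomal genes moved the same way and further, with 55 of 82 lower and a median difference of -0.63 against -0.19 for the subunits. The calls of UQCRH and NDUFA13 held whichever library was left out. That of NDUFA9 was lost without IFNα replicate 2 or 4 or IFNγ replicate 3 or 4 (adjusted p up to 0.109), that of NDUFS6 without IFNα replicate 4 or IFNγ replicate 1 (up to 0.0727), and that of ATP5MC1 without IFNα replicate 1 or 4 or IFNγ replicate 1 or 3 (up to 0.146). Those of NDUFA2, NDUFAB1 and NDUFB8 were each lost in 5 of 8 such fits, with an adjusted p of up to 0.0972, 0.264 and 0.118. The count of 8 became 5 without IFNα replicate 1 or IFNγ replicate 1, 4 without IFNα replicate 2 or IFNγ replicate 3, and 2 without IFNα replicate 4.

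Among other genes of the pathway, complex II had 4 increases and 0 decreases in 40 tests (10%), against 5.45% of tests over all genes. The nuclear regulators had 1 increase and 1 decrease in 80 tests (2.5%), and the cytochrome c genes 0 calls in 20. In complex II, the succinate dehydrogenase that feeds electrons from the TCA cycle, SDHB rose with TGF-β1 (256, 216, 213 and 164 CPM against 125, 128, 136 and 145 CPM; log2 fold change 0.67, SE 0.14, adjusted p = 0.00196), TNF (0.51, adjusted p = 0.0115) and IFNγ (0.48, adjusted p = 0.0215), and SDHD with IFNα (0.37, adjusted p = 0.0343). SDHA averaged 6.63 CPM with IL-1β against 19.0 CPM in unstimulated cells (log2 fold change -1.49) and was not called by edgeR. DESeq2 called 1 complex II gene lower with IL-1β. CYCS and CYC1, for cytochrome c and cytochrome c1, passed for no cytokine by edgeR or DESeq2; the smallest adjusted p was 0.0542 (CYCS, -0.46 with IFNα). Of 12 nuclear regulators, 8 were tested, and the coactivator gene PPARGC1A was at 0 counts in unstimulated cells. TFB1M, a mitochondrial rRNA methyltransferase, was lower with IL-13 (50.5, 22.4, 29.4 and 35.5 CPM against 64.6, 45.9, 82.3 and 81.3 CPM; -0.99, SE 0.23, adjusted p = 0.00636) and higher with TGF-β1 (0.77, SE 0.22, adjusted p = 0.027). The IL-13 call of TFB1M was lost without IL-13 replicate 2 (-0.80, adjusted p = 0.0587) and its TGF-β1 call without TGF-β1 replicate 1, 2 or 3 or unstimulated replicate 1 or 2 (up to 0.138). Between IFNα and IFNγ, TFB2M, a mitochondrial transcription factor, was lower with IFNα (-0.91, SE 0.29, adjusted p = 0.0397). The SDHB call for IFNγ was lost without unstimulated replicate 1 or 2 (up to 0.0562), and that of SDHD without IFNα replicate 3 or 4 or unstimulated replicate 1 or 2 (up to 0.112).

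Over the 10 cytokines, where 5.45% of all gene tests were called, the 44 tested assembly factors had 10 calls (5 up and 5 down, 2.27% of their tests) and the 12 tested TCA cycle genes 1 (0.833%). The 77 tested mitochondrial ribosomal protein genes had 33 calls (4.29%), of which 32 were increases, and the 21 tested import genes had 6 (2.86%). Mitochondrial ribosomal proteins rose with TNF (9 genes, 11.7%, against 5.37% of all genes), IFNγ (9, 11.7%, against 5.52%) and IFNα (8, 10.4%, against 4.99%). With IL-13, 0 of them changed by edgeR (9 at an unadjusted p under 0.05, and 2 by DESeq2). Of the 16 tested glycolytic genes, IFNγ raised 7 (43.8%, against 5.52% of all genes), OSM 5 (31.2%, against 1.42%), TNF 3 (18.8%, against 5.37%) and IFNα 2 (12.5%, against 4.99%), and TGF-β1 raised 2 (12.5%, against 2.61%) and lowered 1. The summed glycolytic level was 3275 CPM in unstimulated replicate 1 against 2002 to 2159 CPM in the other unstimulated libraries. LDHA, which reduces pyruvate to lactate, rose with OSM from 599 to 1104 CPM on average (0.88, SE 0.14, adjusted p = 2.86e-05). The rise was not particular to OSM, as edgeR called LDHA for 4 cytokines. Its means were 959 CPM with TGF-β1, 907 CPM with IFNγ and 814 CPM with TNF. IL-13, IL-17A, IL-1β, IL-22 and IL-6 changed 0 glycolytic genes by edgeR (0, 1, 1, 0 and 0 at an unadjusted p under 0.05). DESeq2 called 0 for each of these 5 as well.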

How the data were processed

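Bulk RNA-seq libraries of 44 Ccd-18Co samples were deposited as 1 table of estimated counts per gene symbol. Per the labels' processing notes, the authors used FastQC 0.11.9, MultiQC 1.14 and kallisto 0.48.0 with build hg38. The transcriptome release and the use of strand are not given in the sources used here, and RNA was extracted with either of 2 kits without record of which library had which. Totals were 742173 to 2213424 (median 1480883), and 5.77% of values were not whole.

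The deposited estimated counts were rounded. edgeR 4.0.16 (R 4.3.3, limma 3.58.1) kept 9513 genes by filterByExpr over the 11 groups, scaled by TMM, and fitted all 44 libraries in a single quasi-likelihood model. Each cytokine was compared with unstimulated cells, TNF with IL-1β, IFNα with IFNγ, and all groups by F-test. P-values were two-sided and adjusted by Benjamini-Hochberg over all genes of a contrast, and a call was an adjusted p under 0.05. Errors of log2 fold changes are standard errors from the same fit. Levels are CPM on TMM-scaled library sizes, divided where stated by the canonical transcript length of GENCODE release 44. Gene coordinates are from the same release (hg38), and 99.23% of symbols matched it. A replicate duplicate check found no pair of libraries within sampling noise. The main script was tested on simulated data. Alternatives were DESeq2 size factors, DESeq2 1.42.0 as the test, other count filters, a replicate block, only the groups compared, and each library left out.

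Genes were named by a rule: up to 3 called rises and falls per cytokine with the largest change, isoform pairs, the highest and lowest per length of each complex, called members of companion lists, and every gene of a count of 5 or fewer. NDUFA2, NDUFA6, NDUFAB1, NDUFB4, NDUFB8, UQCRQ, ATP5ME, ATP5MF, ATP5F1A, ATP5F1B, ATP5F1E, SDHA, CYCS, TFB2M and LDHA fall outside it and were chosen after their values were seen. The members and lists were chosen with earlier results of these data known.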

Additional observations from a re-analysis of the deposited data

Results flagged for a closer look

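In 5 of 140 groups of 4 libraries that were screened for an outlying value, 1 library stood apart by Dixon's criterion, where chance gives about 1 in 20. The summed level of the subunits with OSM was 20040 CPM in replicate 1 against 16669 to 17192 CPM in the others. For complex I, the sum with IL-6 was 7689 CPM in 1 library against 6514 to 6672 CPM, and the sum with IFNγ was 6409 CPM in 1 library against 7481 to 7574 CPM. Total estimated counts were 2095807 in 1 IL-1β library against 1620541 to 1660473, and 1486860 in 1 IL-6 library against 1612043 to 1627960.

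The effects of IFNα and IFNγ, tested against each other, differed for 8 subunits. The log2 differences were -0.73 for UQCRH, -0.66 for NDUFA13, -0.61 for NDUFA9, -0.60 for NDUFS6, -0.57 for NDUFA2, -0.54 for NDUFAB1, -0.46 for ATP5MC1 and -0.42 for NDUFB8. The cytosolic ribosomal protein genes differed in the same direction (median -0.63), and the part of that shift in these differences was not tested.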

How the results depend on the processing

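No named change reversed. Of 46 named calls, 13 passed under every setting: ATP5MC1, COX4I1, COX7A2, NDUFV2 and C15orf48 for TNF, COX7A2, NDUFV2 and C15orf48 for IL-1β, NDUFA13 and NDUFS6 for IL-13, NDUFA9 for IFNγ, and NDUFA13 and UQCRH between IFNα and IFNγ. With all genes of any count tested, subunit calls were 7 for TNF, 2 for IL-1β, 0 for IFNα, 1 for IFNγ, 0 for OSM, 1 for TGF-β1, 3 for IL-13, 1 for TNF against IL-1β and 2 for IFNα against IFNγ. With only the groups compared in the fit they were 4 for TNF, 1 for IFNα, 0 for OSM, 0 for TGF-β1, 0 for IL-17A, 2 for IL-13, 1 for TNF against IL-1β and 3 for IFNα against IFNγ. DESeq2 called 7 for IFNγ, 12 for TGF-β1, 7 for IL-17A and 9 for IL-22, and its size factors in edgeR gave 5 for IFNγ. Asking also for an absolute log2 fold change above 1.5 left 0 in every comparison. The cause of these shifts was not tested. Counts over all genes stand above only for DESeq2 as the test and, for each cytokine, for the fold change rule. For the other settings, including the block and the libraries left out, a shift of the subunits cannot be told from a shift of all genes. A filter of 10 counts in 4 libraries changed no count by over 1.5 times.

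Leaving out 1 library at a time gave 4 to 17 calls for TNF, 3 to 10 for IL-1β, 0 to 5 for IFNα, 2 to 7 for IFNγ, 0 to 2 for OSM, 2 to 15 for TGF-β1, 3 to 15 for IL-13, 0 to 13 for IL-17A, 0 to 7 for IL-22, 0 to 0 for IL-6, 0 to 1 for TNF against IL-1β, 2 to 8 for IFNα against IFNγ and 32 to 43 among the groups.

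Whether replicate numbers pair the samples is not given in the sources used here. Over 220 same-numbered pairs the correlation of deviations ran from -0.187 to 0.281. Its mean was 0.024, against -0.008 for pairs with other numbers. Of 44 libraries, 22 correlated best with their own among 4 numbers. That is more than an equal spread over the 4 numbers would give, a hint from the data only. With the replicate block the counts were 5 for IFNγ (3 without it), 9 for TGF-β1 (5), 8 for IL-17A (2), 2 for IL-22 (0), 15 for TNF (13) and 10 for IL-13 (9).

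The 11 untested subunits had at most 16.2 counts in any library. Intervals and standard errors come from the fit and include the spread between libraries.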
